A study of Homo sapiens with 19 samples.

Results

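The neural plate and forebrain factors followed here are 9 genes for DNA-binding proteins, SOX1, SOX3, PAX6, OTX2, SIX3, LHX2, RAX, POU3F1 and HESX1. They were taken by gene symbol from the expression tables, and each symbol matched 1 of 33382 genes. RNA-seq was done on H1 cells, an established human embryonic stem cell (hESC) line grown in mTeSR1 on matrigel, and on lines derived from it that lack parts of Polycomb repressive complex 2 (PRC2), in 19 samples. There were 2 samples of WT H1 and of each of 5 knockouts, namely SUZ12-/- H1, EED-/- H1, EZH2-/-/EZH1-/- H1, EZH2-/- H1 and EZH1-/- H1, and by their titles the samples of a knockout were separate clones or passages. In the knockouts a drug cassette replaced a functional domain of the gene, and in the double knockout both genes were targeted in turn. H1-EED-/-/EED-OE cells lack endogenous EED function and carry a lentiviral EED transgene that doxycycline (DOX) switches on, and 1 sample was kept in DOX while single samples were taken 8, 12, 16, 20, 24 and 28 days after its withdrawal. The label of the +DOX sample also carries the day 28 tag in its title.

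The neural plate is the sheet of ectoderm that gives rise to the brain and spinal cord, and its front end becomes the forebrain and the eyes. SOX1 and SOX3 are SOXB1 proteins, relatives of SOX2 that keep neural progenitors in an undifferentiated state, and PAX6 is a paired-box factor of neuroectoderm, eye and endocrine pancreas. PRC2 places the repressive mark H3K27me3 on histones, and many developmental regulators carry that mark in hESCs. POU3F1, OTX2, SOX3 and HESX1 are also expressed by pluripotent cells of the primed state, so none of these 4 marks neural tissue alone.

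EZH2-/- H1, EZH1-/- H1 and WT H1 cells are called here the lines that retain H3K27me3. SUZ12-/- H1, EZH2-/-/EZH1-/- H1 and EED-/- H1 cells are called the 3 PRC2-null lines. On the study's blots the mark was lost in the PRC2-null lines, and in EZH1-/- H1 and EZH2-/- H1 cells it was kept at a lower level than in WT H1. Expression was given as TPM, a share of all transcripts in a sample that is corrected for transcript length, so sequencing depth is unknown and precision rests on the replicates. A TPM above 0 was listed for 19117 to 23012 genes per sample, and 0 pairs of samples were identical. The targeted genes do not check the line labels, since the TPM of a whole gene need not fall when one domain is lost. EED was at 14.25 and 22.36 TPM in EED-/- H1 cells and at 17.3 and 21.96 in WT H1, and SUZ12 was at 22.94 and 20.76 TPM in SUZ12-/- H1 cells against 25.21 and 27.89. EZH1 was at 12.49 and 17.07 TPM in EZH1-/- H1 cells against 13.71 and 14.29, and EZH2 was at 46.94 and 22.02 in EZH2-/- H1 cells against 54.55 and 58.89. In EZH2-/-/EZH1-/- H1 cells EZH2 was at 31.28 and 20.03 TPM and EZH1 at 9.37 and 6.78. The EED transgene was visible, with EED at 108.54 TPM in +DOX and at 12.64 to 31.56 TPM at the 6 days after withdrawal. All lines are therefore named by their labels. The hESC label was checked against 10 pluripotency markers, and in the 3 PRC2-null lines 8 of the 10 fell. POU5F1, the core pluripotency factor OCT4, was at 2428 to 3456 TPM in the samples that retain H3K27me3 and at 3.62 to 149.79 in the PRC2-null samples. In bulk RNA, fewer cells of a type and less RNA per cell cannot be told apart.

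The stretches just before the transcription start are shown for 4 factors with a single RefSeq start, because they stand for the patterns found below: SOX3 and POU3F1, which fell in every PRC2-null line, LHX2, which was higher in PRC2-null lines, and SOX1, which was near 0 in every line and seen mainly at day 8. Each is the 250 bases before the start on GRCh38.p14, read 5′ to 3′ on the strand of the gene, with each CCAAT box, or its complement ATTGG, in capitals. The windows are chrX:140505070-140505319 on the minus strand, chr1:38046794-38047043 on the minus strand, chr9:124011518-124011767 on the plus strand and chr13:112066899-112067148 on the plus strand, and that of LHX2 lies inside the longer gene of GENCODE.
SOX3: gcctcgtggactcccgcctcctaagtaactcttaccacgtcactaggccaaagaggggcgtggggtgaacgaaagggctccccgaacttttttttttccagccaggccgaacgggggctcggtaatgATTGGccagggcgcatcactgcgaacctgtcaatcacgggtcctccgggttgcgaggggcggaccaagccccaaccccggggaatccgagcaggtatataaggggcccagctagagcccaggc
POU3F1: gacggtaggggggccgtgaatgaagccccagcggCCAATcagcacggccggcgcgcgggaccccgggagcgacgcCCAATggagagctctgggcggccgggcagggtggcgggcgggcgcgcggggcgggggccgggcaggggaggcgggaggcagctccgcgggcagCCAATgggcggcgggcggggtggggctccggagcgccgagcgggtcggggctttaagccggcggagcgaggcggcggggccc
LHX2: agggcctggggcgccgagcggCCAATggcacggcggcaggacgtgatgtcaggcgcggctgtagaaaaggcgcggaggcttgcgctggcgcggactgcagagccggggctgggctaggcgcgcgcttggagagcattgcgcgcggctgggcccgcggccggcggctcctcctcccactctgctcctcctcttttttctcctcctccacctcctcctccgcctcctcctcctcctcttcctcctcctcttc
SOX1: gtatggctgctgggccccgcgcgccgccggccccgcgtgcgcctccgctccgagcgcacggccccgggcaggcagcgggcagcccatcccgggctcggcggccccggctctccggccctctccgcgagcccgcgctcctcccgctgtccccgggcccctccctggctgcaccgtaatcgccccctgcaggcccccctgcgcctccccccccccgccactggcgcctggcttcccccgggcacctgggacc
CpG was counted 36 times for POU3F1, 31 times for SOX1, 25 times for LHX2 and 17 times for SOX3, against a median of 11 over the 35116 RefSeq promoter windows of the same length. All 4 were above that median, among factors that fell, rose or stayed near 0. A CCAAT box on either strand was present in 32% of all windows, and 3 copies lay before POU3F1, 1 before LHX2, 1 before SOX3 and 0 before SOX1. An entry was found for 8 of the 9 factors, and 5 had a single start.

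The first question was which of the factors differ between the PRC2-null lines and the lines that retain H3K27me3. The study reports that the PRC2-null lines differentiated spontaneously, so loss of the mark and differentiation cannot be told apart in this comparison. SOX3, POU3F1 and HESX1 fell and PAX6 and LHX2 rose in the mean of the 3 PRC2-null lines, while OTX2 was at 11.33 TPM or more in all 12 samples. Differences were tested with limma on log2(TPM + 1) in 1 fit of the 12 line samples, and a gene was called at a false discovery rate (FDR) of 1% with a fold of at least 3, which is 1.585 on the log2 scale. Of the 9 factors, 7 entered the test, which required 1 TPM in 2 or more of the 12 samples, and SOX1 and RAX were too low. PAX6, LHX2 and SIX3 were at most at 0.7, 0.66 and 0.11 TPM in the lines that retain H3K27me3. They could enter only through the PRC2-null samples, where they were higher, so the set of 7 depends on the groups compared. In the mean of the PRC2-null lines against the mean of the other 3 lines, 2 of the 7 factors rose and 3 fell. The SE and p-values given below come from the spread between the 2 samples of a line. They do not measure the spread between lines. Among all 19100 genes tested, 13.5% rose and 5.09% fell, and the median log2 fold change was 0.29. At an FDR of 5% with no fold cutoff 68.6% of all genes were called. The share of all genes whose groups did not overlap was not counted. A gap between the groups, given below for some factors, therefore does not set them apart from other genes.

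**Figure D1:**
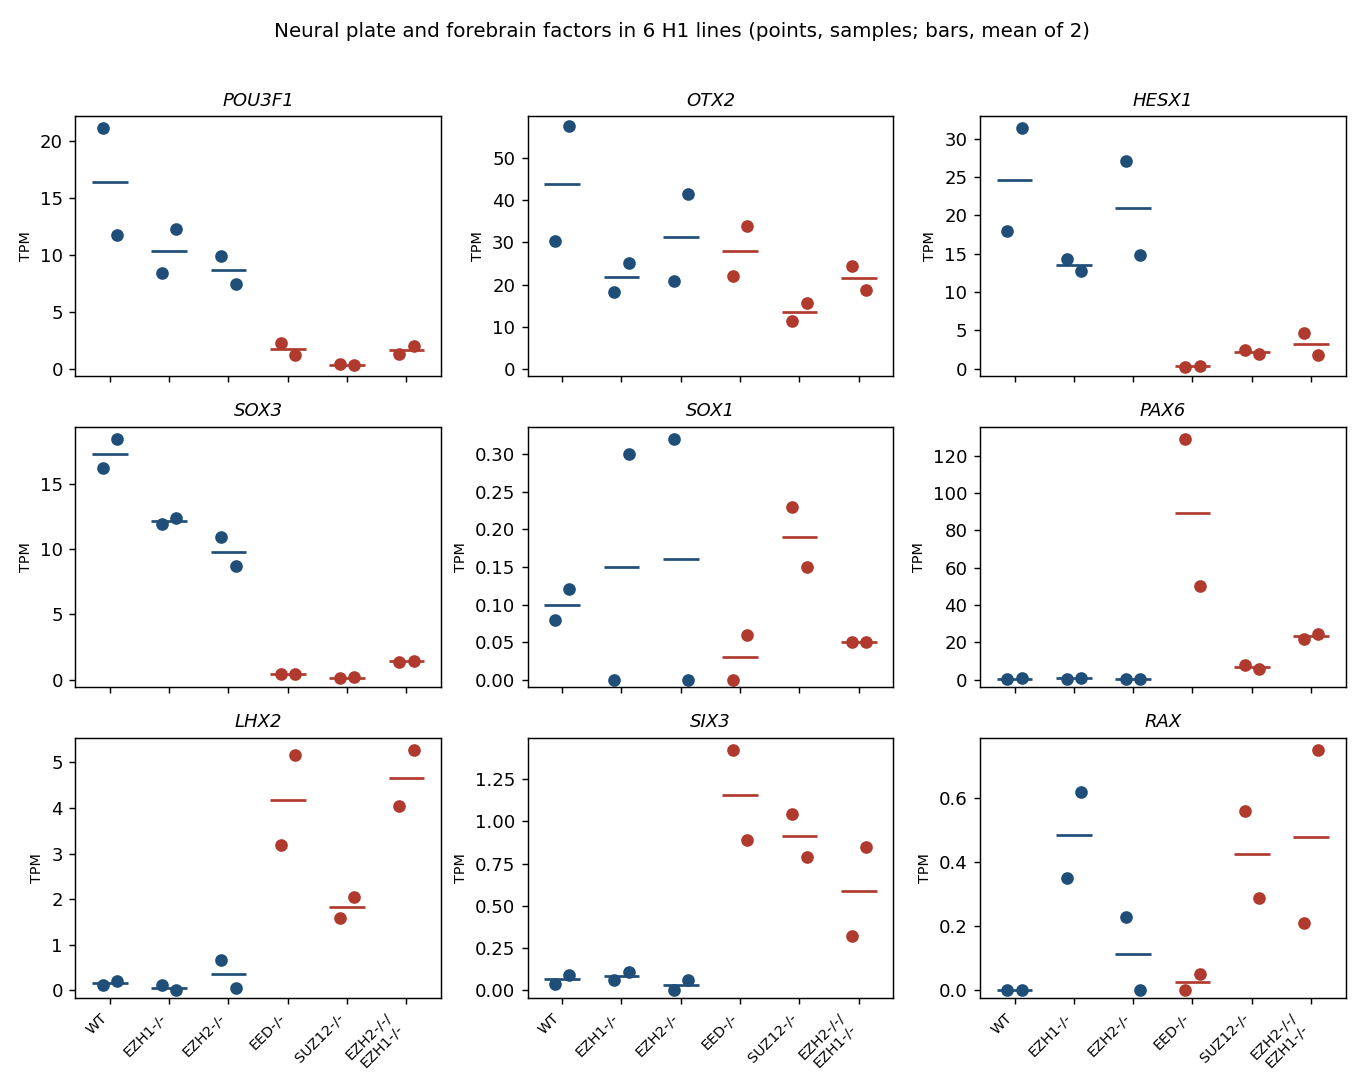
TPM (y axis, a separate linear scale for each factor) of the 9 factors in the 6 H1 lines (x axis), with points for single samples and bars for the mean of 2. Blue marks the lines that retain H3K27me3 and red the PRC2-null lines: SOX3 runs from 8.72 to 18.44 in blue and from 0.09 to 1.45 in red, and PAX6 from 0.24 to 0.7 in blue and from 5.66 to 128.76 in red.

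POU3F1 (chr1:38043829-38046793, minus strand, positions here and below from GENCODE release 44 on GRCh38) is a POU-domain factor, also called OCT6, of the epiblast and early neural cells. It was at 21.15 and 11.76 TPM in WT H1, 8.42 and 12.32 in EZH1-/- H1 and 9.94 and 7.43 in EZH2-/- H1 cells. In the PRC2-null lines it was at 2.24 and 1.24 TPM in EED-/- H1, 1.26 and 2.0 in EZH2-/-/EZH1-/- H1 and 0.44 and 0.29 in SUZ12-/- H1 cells. The lowest sample of the first 3 lines was above the highest of the other 3. The log2 fold change was -2.52 ± 0.20 (SE, mean of 3 lines against mean of 3 lines, 2 samples each, limma adjusted p = 1.15e-06).

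SOX3 (chrX:140502985-140505069, minus strand) also fell. It was at 16.25 and 18.44 TPM in WT H1, 11.96 and 12.4 in EZH1-/- H1 and 10.91 and 8.72 in EZH2-/- H1 cells. It was at 0.44 and 0.45 TPM in EED-/- H1, 1.33 and 1.45 in EZH2-/-/EZH1-/- H1 and 0.09 and 0.17 in SUZ12-/- H1 cells. The groups did not overlap, and the log2 fold change was -3.13 ± 0.14 (SE, limma adjusted p = 1.79e-08).

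HESX1 (chr3:57197838-57227606, minus strand) is a homeodomain repressor of the anterior neural plate and pituitary primordium. It was at 17.9 and 31.34 TPM in WT H1, 14.36 and 12.76 in EZH1-/- H1 and 27.09 and 14.78 in EZH2-/- H1 cells. It was at 0.29 and 0.34 TPM in EED-/- H1, 4.72 and 1.8 in EZH2-/-/EZH1-/- H1 and 2.46 and 1.94 in SUZ12-/- H1 cells. EED-/- H1 cells held the lowest level, and over all PRC2-null lines the log2 fold change was -2.94 ± 0.23 (SE, limma adjusted p = 1.09e-06).

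OTX2 (chr14:56799905-56816693, minus strand), a homeodomain factor needed to form the head and forebrain, was not called. It was at 30.23 and 57.63 TPM in WT H1, 18.21 and 25.2 in EZH1-/- H1 and 20.96 and 41.58 in EZH2-/- H1 cells. It was at 22 and 33.84 TPM in EED-/- H1, 24.48 and 18.59 in EZH2-/-/EZH1-/- H1 and 11.33 and 15.73 in SUZ12-/- H1 cells. The groups overlapped, and the log2 fold change was -0.56 ± 0.23 (SE, limma adjusted p = 0.0462). In SUZ12-/- H1 cells alone the value against WT H1 was -1.575 ± 0.39 (SE, limma adjusted p = 0.0073), just short of 3-fold. It passed with scaling by median ratios (-1.75) and without WT H1 replicate 1 (-2.03).

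PAX6 (chr11:31784779-31817961, minus strand) showed the widest range between lines. It was at 0.41 and 0.7 TPM in WT H1, 0.53 and 0.69 in EZH1-/- H1 and 0.24 and 0.3 in EZH2-/- H1 cells. It was at 128.76 and 50.03 TPM in EED-/- H1, 21.91 and 24.47 in EZH2-/-/EZH1-/- H1 and 7.94 and 5.66 in SUZ12-/- H1 cells. The lowest PRC2-null sample was above the highest of the other 6, and the log2 fold change was 4.08 ± 0.22 (SE, limma adjusted p = 6.84e-08). Against WT H1 it was 2.32 in SUZ12-/- H1, 3.96 in EZH2-/-/EZH1-/- H1 and 5.72 in EED-/- H1 cells, a spread that this SE does not measure. PAX6 entered the test only through PRC2-null samples, so the gap between its groups and its p-value are tied to the filter. PAX6 overlaps ELP4 on the opposite strand, and strand use in the counting is not given in the sources used here. ELP4 was at 12.91 to 18.75 TPM in the 6 samples that retain H3K27me3 and at 7.84 to 13.41 TPM in the PRC2-null samples.

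LHX2 (chr9:124001670-124033301, plus strand), a LIM homeodomain factor of the eye field and cortex, rose to a lower level. It was at 0.13 and 0.21 TPM in WT H1, 0.12 and 0 in EZH1-/- H1 and 0.66 and 0.06 in EZH2-/- H1 cells. It was at 3.18 and 5.16 TPM in EED-/- H1, 4.04 and 5.27 in EZH2-/-/EZH1-/- H1 and 1.6 and 2.06 in SUZ12-/- H1 cells. The groups did not overlap, and the log2 fold change was 1.87 ± 0.17 (SE, limma adjusted p = 3.64e-06). LHX2 entered the test only through PRC2-null samples, so the gap between its groups and its p-value are tied to the filter.

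The eye field factors SIX3 (chr2:44941702-44946071, plus strand) and RAX (chr18:59267035-59274086, minus strand), and SOX1 (chr13:112067149-112071706, plus strand), were at the bottom of the range in the lines. SIX3 was at 0 to 0.11 TPM in the 6 samples that retain H3K27me3 (median 0.06) and at 0.32 to 1.42 in the 6 PRC2-null samples (median 0.87). Its groups did not overlap, yet its log2 fold change of 0.81 ± 0.14 (SE, limma adjusted p = 0.000411) was short of 3-fold. SIX3 entered the test only through PRC2-null samples, at 1.42 TPM in an EED-/- H1 and 1.04 in a SUZ12-/- H1 sample. The gap between its groups and its p-value are therefore tied to the filter. SOX1, an early marker of the neural plate, was at 0 to 0.32 TPM (median 0.10) and at 0 to 0.23 TPM (median 0.055) in the same groups. RAX was at 0 to 0.62 TPM (median 0.115) and at 0 to 0.75 TPM (median 0.25), so for both genes the groups overlapped. Antisense noncoding genes overlap OTX2, SIX3 and LHX2, and OTX2-AS1 reached 2.2 TPM, SIX3-AS1 3.23 TPM, both at day 8 of the time course, and LHX2-AS1 0.11 TPM.

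Each line was then set against WT H1, a comparison that shares the 2 WT H1 samples between lines. PAX6 and LHX2, the factors that rose, had entered the fit through PRC2-null samples only. In EED-/- H1 cells 2 of the 7 factors rose and 3 fell, where 16.2% of all genes rose and 6.09% fell. In SUZ12-/- H1 cells 1 factor rose and 3 fell, beside 14.5% and 5.21% of all genes. In EZH2-/-/EZH1-/- H1 cells 2 factors rose and 3 fell, beside 11.6% and 5.66% of all genes. SOX3, POU3F1, HESX1 and PAX6 were called in all 3 lines, while LHX2 was called in EED-/- H1 (2.12 ± 0.30, SE, limma adjusted p = 0.000195) and EZH2-/-/EZH1-/- H1 cells (2.27 ± 0.30, SE, limma adjusted p = 0.000164) and was at 1.27 ± 0.30 in SUZ12-/- H1 cells (limma adjusted p = 0.00546). For HESX1 the log2 fold changes were -2.95 ± 0.41 for SUZ12-/- H1, -4.23 ± 0.41 for EED-/- H1 and -2.63 ± 0.41 for EZH2-/-/EZH1-/- H1 cells (SE).

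No factor was called in the lines that lack only EZH1 or only EZH2. In EZH1-/- H1 cells limma called 0 of 7 factors, with 1 at an unadjusted p under 0.05, and 0.0995% of all genes, with 3058 of the 19100 genes at an unadjusted p under 0.05. In EZH2-/- H1 cells it called 0 of 7, with 2 at an unadjusted p under 0.05, and 0% of all genes, with 1110 genes at an unadjusted p under 0.05. SOX3 was nevertheless lower in all 4 of these samples than in both WT H1 samples, with log2 fold changes of -0.77 ± 0.24 for the EZH2 knockout and -0.47 ± 0.24 for the EZH1 knockout (SE, limma adjusted p = 0.577 and 0.379), which did not pass.

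**Figure D2:**
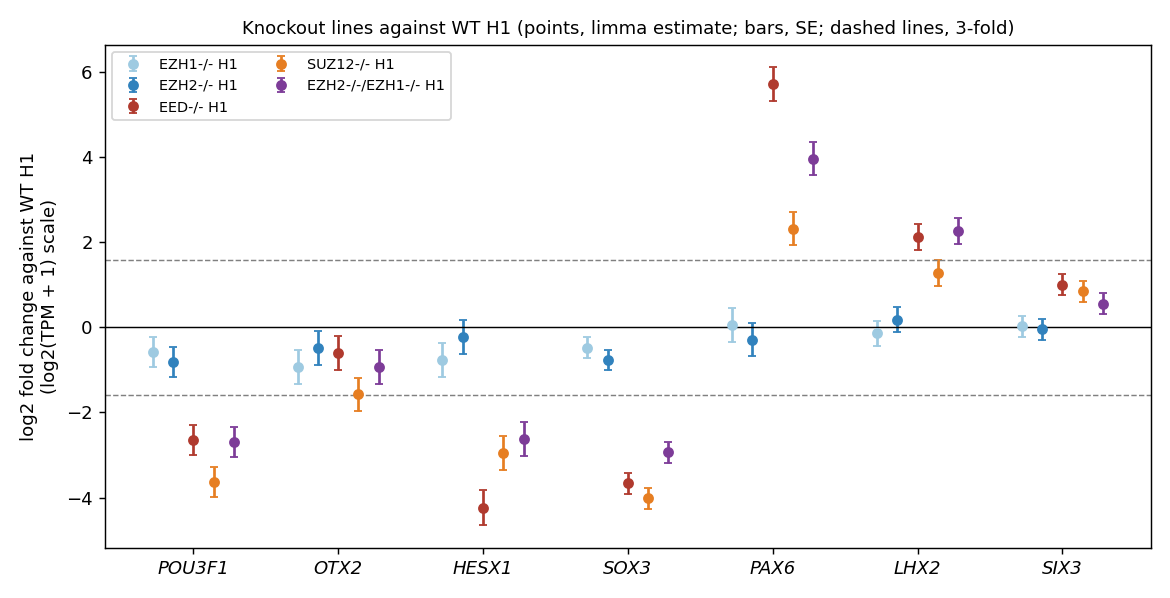
Log2 fold change against WT H1 on the log2(TPM + 1) scale (y axis) of the 7 tested factors (x axis) in the 5 knockout lines (colours), with points for the limma estimate, bars for its SE and dashed lines at 3-fold. SOX3, POU3F1 and HESX1 lie below the lower line in the 3 PRC2-null lines, and PAX6 ranges from 2.32 in SUZ12-/- H1 to 5.72 in EED-/- H1 cells.

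The PRC2-null lines were compared with one another to see whether they share 1 level. PAX6 was lower in SUZ12-/- H1 than in EED-/- H1 cells by a log2 fold change of -3.40 ± 0.39 (SE, 2 samples against 2, limma adjusted p = 0.000197), and it was the 1 of 7 factors called there, beside 6.12% of all genes. EZH2-/-/EZH1-/- H1 cells lay between them, with -1.75 ± 0.39 against EED-/- H1 (limma adjusted p = 0.0646). In that comparison 0 of 7 factors were called by limma, with 3 at an unadjusted p under 0.05, beside 0.089% of all genes called and 3831 genes at an unadjusted p under 0.05. PAX6 differed by 2.57-fold between the 2 EED-/- H1 samples themselves. Without replicate 1, the higher of them, the log2 fold change was 5.04 for EED-/- H1 against WT H1 and -2.73 for SUZ12-/- H1 against EED-/- H1 cells, and without replicate 2 these were 6.39 and -4.07. Without replicate 2 the value for EZH2-/-/EZH1-/- H1 against EED-/- H1 cells was -2.43 and passed (limma adjusted p = 0.00782). SUZ12-/- H1 against EZH2-/-/EZH1-/- H1 cells gave 0 of 7 factors called by limma, with 4 at an unadjusted p under 0.05, beside 4.46% of all genes called and 5438 genes at an unadjusted p under 0.05. HESX1 went the other way, at 1.28 ± 0.41 in SUZ12-/- H1 against EED-/- H1 cells (SE, limma adjusted p = 0.0492), which did not pass.

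The time course after DOX withdrawal shows the factors while the EED transgene is switched off. These samples have no replicates, so the values below carry no test, and a factor is counted as past 3-fold on the ratio of TPM + 1. At day 8 SIX3, OTX2, SOX1, HESX1 and PAX6, 5 of the 9 factors, were past 3-fold above +DOX and 0 below, where 2.78% of 19011 genes were above and 0.589% below. The median log2 ratio was 2.07 over the 9 factors and 0.16 over all genes.

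SIX3, which patterns the rostral forebrain and eye, was at 0.27 TPM in +DOX, 37.6 at day 8, 2.31 at day 12, 2.28 at day 16, 0.97 at day 20, 0.33 at day 24 and 0.14 at day 28. SOX1 was at 0.4 TPM in +DOX, then 9.04, 2.13, 0.64, 0, 0 and 0.36 at the 6 days in turn. HESX1 was at 7.33 TPM in +DOX, then 40.04, 7.28, 4.39, 5.17, 1.19 and 1.48. In all 3 the day 8 sample stood above the rest by over 3-fold, with log2 ratios to the highest of the other 6 samples of 3.54 for SIX3, 2.30 for HESX1 and 1.68 for SOX1. These 3 of 9 factors stand beside 0.168% of all genes that were past 3-fold above the highest of the rest, and 0 of 9 were past 3-fold below the lowest of the rest. HESX1 in +DOX was below both WT H1 samples, and against the WT H1 mean its day 8 log2 ratio was 0.68.

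OTX2 was at 14.99 TPM in +DOX, then 136.53, 31.14, 41.09, 47.45, 24.18 and 121.87 at the 6 days in turn. It was high at both ends, so day 8 was not set apart from day 28 (log2 ratio 0.16). OTX2 in +DOX was below both WT H1 samples. Against the WT H1 mean its log2 ratio was 1.61 at day 8, where it was 3.10 against +DOX, and it was between -0.84 and 0.11 at days 12 to 24. PAX6 was at 0.48 TPM in +DOX, then 5.23, 1.72, 1.45, 3.27, 2.08 and 32.76. Its highest sample was day 28, still below both EED-/- H1 samples.

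SOX3 was at 17.18 TPM in +DOX, then 29.09, 22.69, 3.63, 2.8, 0.77 and 0.82. POU3F1 was at 17.15 TPM in +DOX, then 23.59, 15.32, 7.79, 3.64, 0.47 and 2.66. Both were highest at day 8 and low by day 24, with log2 ratios of day 24 to +DOX of -3.36 for SOX3 and -3.63 for POU3F1. SOX3 at days 24 and 28 was within the range of the PRC2-null lines. Pluripotency markers were low at the same days, and their part in these levels was not tested. POU5F1 was at 2916 TPM in +DOX, then 2422, 3468, 3356, 1580, 46.24 and 33.56. Of the 10 markers, 0 were past 3-fold below +DOX at days 8, 12 and 16, 2 at day 20, 6 at day 24 and 7 at day 28.

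LHX2 was at 0.27 TPM in +DOX, then 2.77, 5.8, 3.89, 4.63, 4.26 and 1.51, with its highest value at day 12. RAX, a homeodomain factor of the eye field, was at 0.73 TPM in +DOX, then 2.06, 2.02, 0.53, 0.28, 0.09 and 0.32. Days 8 and 12 held nearly the same level of RAX, and its highest TPM was the lowest of the 9.

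**Figure D3:**
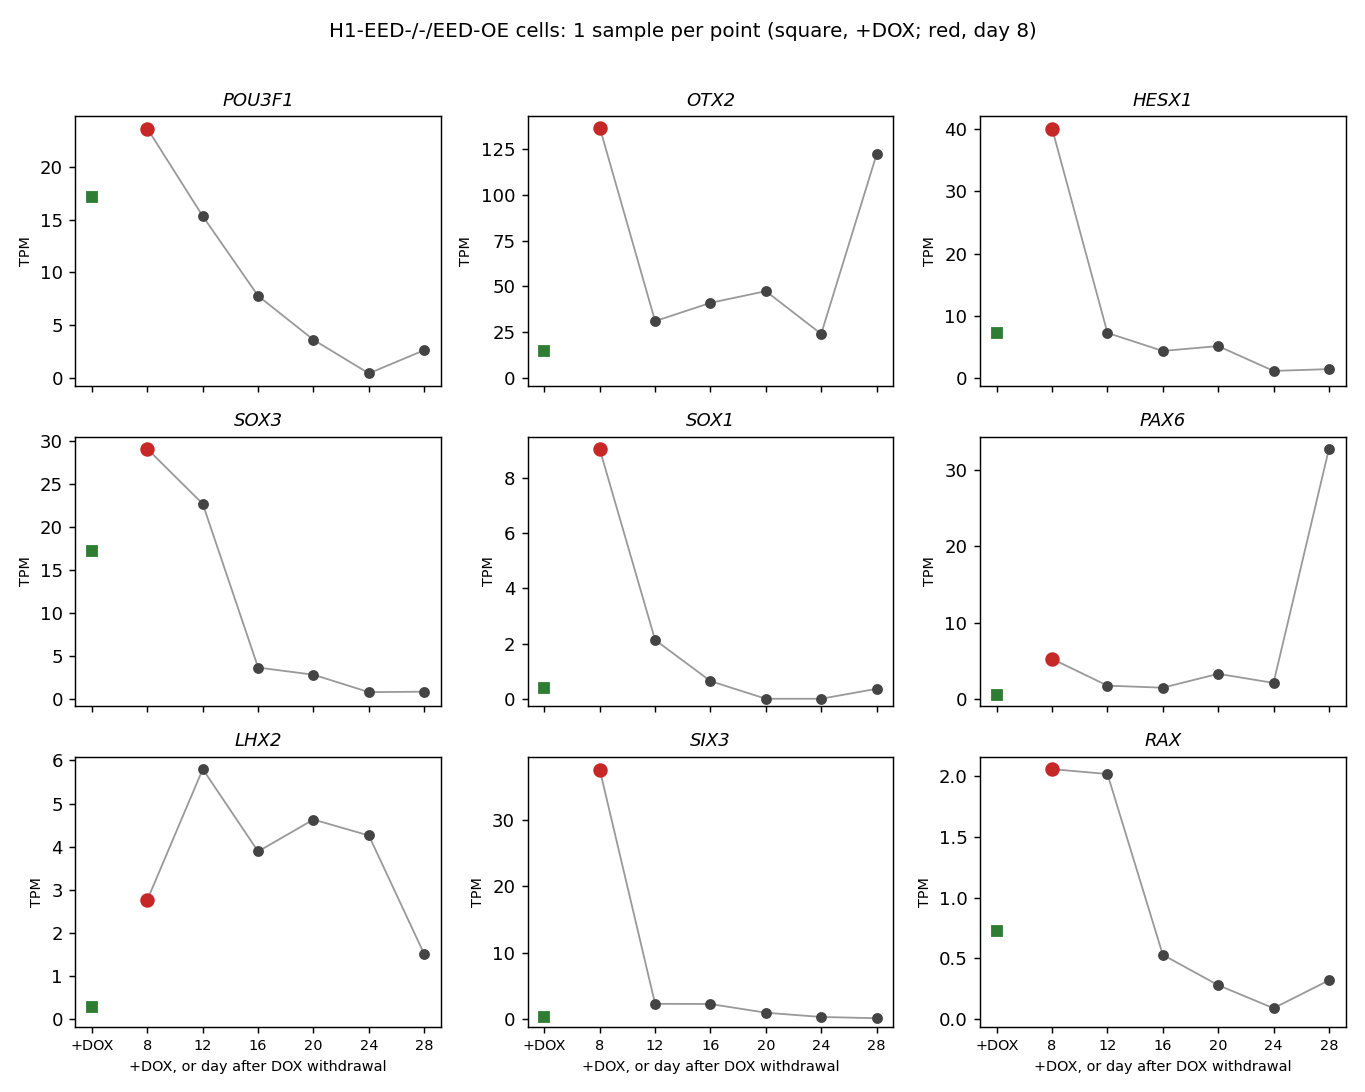
TPM (y axis, a separate linear scale for each factor) of the 9 factors in H1-EED-/-/EED-OE cells with DOX (green square) and at days 8 to 28 after its withdrawal (x axis), 1 sample per point and day 8 in red. SIX3 reaches 37.6 at day 8 and at most 2.31 in any other sample, whereas PAX6 peaks at day 28 with 32.76.

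At later days factors lay past 3-fold in both directions. At day 12 LHX2 alone was past 3-fold above +DOX, 1 of 9, and 0 were below, beside 2.84% and 0.4% of all genes. At day 16 LHX2 was above and SOX3 below, beside 3.81% and 0.894%. At day 20 OTX2 and LHX2 were above and SOX3 and POU3F1 below, beside 9.07% and 2.69%. OTX2 only just passed there, at a log2 ratio of 1.60, and was at 1.38 with scaling by median ratios and 0.11 against the WT H1 mean. At day 24 LHX2 was above, and SOX3, POU3F1 and HESX1 were below, beside 12.9% and 4.67%. At day 28 PAX6 and OTX2 were above and the same 3 factors below, beside 17.9% and 5.61%. Against the WT H1 mean OTX2 at day 28 was at 1.45, short of 3-fold.

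The day 8 sample was also read through other genes of the tissue, in lists assembled with earlier results of these data known. Of 17 other forebrain and neural plate factors, 14 passed the filter of 1 TPM in at least 1 time course sample, and 5 of these were past 3-fold above +DOX at day 8 and 0 below. LHX5, a LIM homeodomain factor of the forebrain, was at 43.91 TPM at day 8 and at 2.05 or less in the other 6 samples. FEZF1, a zinc finger factor of the forebrain, was at 126.47 TPM at day 8 and 23.93 in +DOX. SOX21 was at 31.99 TPM at day 8 and 22.25 at day 28. LHX5 and FEZF1 were the 2 of 14 past 3-fold above the highest of the rest.

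**Figure D4:**
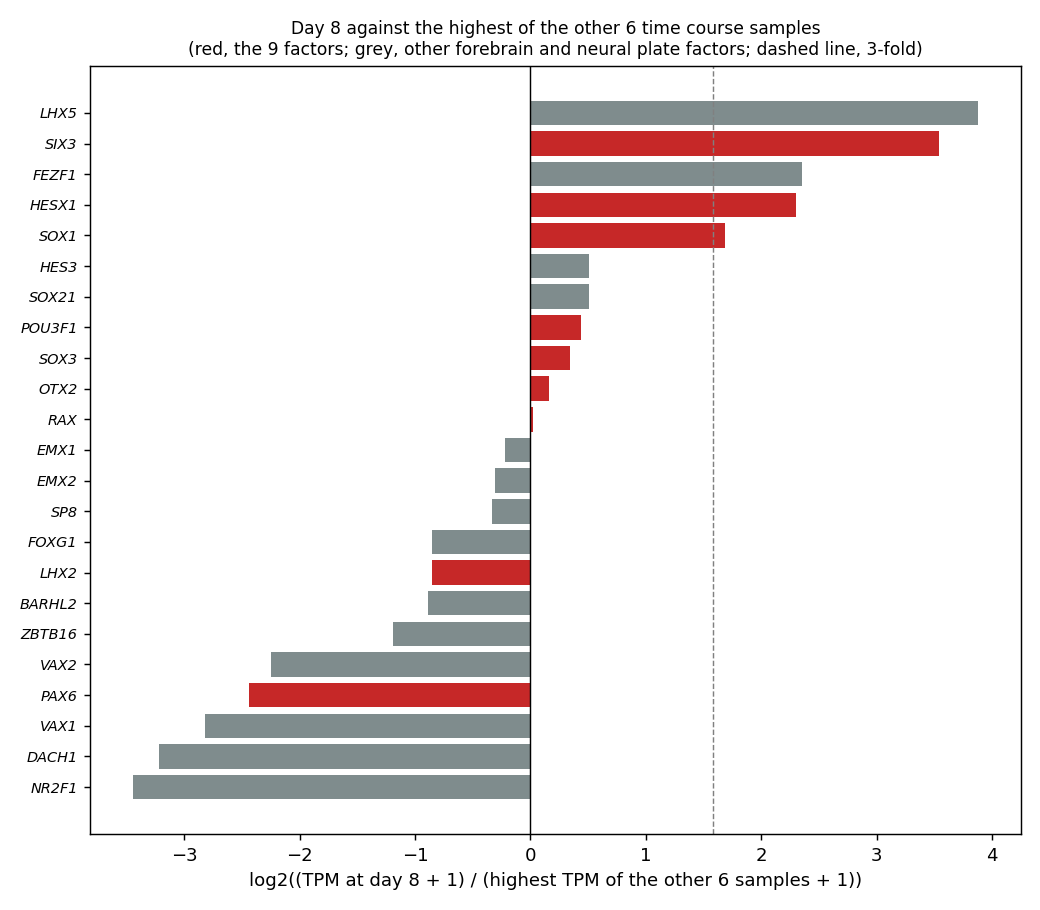
Log2 ratio of TPM + 1 at day 8 to the highest TPM + 1 of the other 6 time course samples (x axis) for the 9 factors (red) and 14 other forebrain and neural plate factors (grey), 1 bar per gene and no error, since each sample is single. LHX5, SIX3, FEZF1, HESX1 and SOX1 lie past the dashed 3-fold line, and PAX6, at -2.44, lies on the other side of 0.

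Genes of the more posterior neural tube and of neurons were read in the same way. Of 11 midbrain, hindbrain and spinal cord factors, 1 was past 3-fold above +DOX, IRX3 at 14.35 against 2.85 TPM, and 0 exceeded the highest of the rest by 3-fold. Of 11 neural progenitor and neuron genes, 1 was past 3-fold above +DOX, MAP2, a neuronal cytoskeletal protein, at 20.48 against 5.94 TPM. Of 9 nearest relatives, 2 were past 3-fold above +DOX and 0 below, and 0 exceeded the highest of the rest by 3-fold. The median log2 ratio to +DOX of these relatives was 0.35. The 2 were SOX2 and POU3F4. SOX2 was at 131.44 TPM in +DOX and 417.44 at day 8, then 165.15, 94.35, 2.48, 2.1 and 35.92. POU3F4 was at 0.29 TPM in +DOX and 7.55 at day 8. SIX6 went the other way, at 2.59 TPM in +DOX and 1.14 at day 8. Markers of other lineages were counted in the same sample. At day 8, 1 of 10 mesoderm and endothelial markers (TBX5, 0 in +DOX and 10.7), 3 of 8 endoderm markers (HHEX, CXCR4 and GATA4, at 7.21, 5.0 and 3.67 TPM) and 2 of 10 non-neural ectoderm and neural crest genes were past 3-fold above +DOX. Other genes of the mesoderm and endoderm lists varied widely in level at day 8. KDR was at 64.26 TPM, against 38.46 in +DOX, while T was at 0.68, MIXL1 at 0.16, PECAM1 at 0, SOX17 at 0.68, FOXA2 at 0.27 and GATA6 at 0.08. By day 28 the endoderm count was 7 of 8 and the mesoderm count 8 of 10, and their part in the levels of the 9 factors at that day was not tested.

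The same lists gave a mixed picture in the PRC2-null lines. Of 13 tested forebrain and neural plate factors, 4 rose and 3 fell, with HES3, a repressor of the HES family, at -4.49 ± 0.16 and FEZF1 at -2.64 ± 0.24 among those that fell. NR2F1, a nuclear receptor of cortex and other tissues, was at 3.93 ± 0.19 and DACH1 at 3.30 ± 0.21. Of 8 midbrain, hindbrain and spinal cord factors 5 rose and 0 fell, with PAX2 at 2.25 ± 0.33 and IRX3 at 1.99 ± 0.17. Of 11 neural progenitor and neuron genes 3 rose, STMN2 (5.72 ± 0.39), CDH2 (3.55 ± 0.16) and NCAM1 (3.16 ± 0.28), and FABP7, a radial glia protein, fell (-1.90 ± 0.39). Values are log2 fold changes with SE. FABP7 was at 16.31 and 4.12 TPM in EZH2-/-/EZH1-/- H1 cells and at 13.42 to 39.78 in the samples that retain H3K27me3, so its groups overlapped. In EZH2-/-/EZH1-/- H1 cells against WT H1, 0 genes of this list fell. Among nearest relatives SOX2 fell (-3.54 ± 0.26), and POU3F3 (2.04 ± 0.37) and POU3F2 (1.95 ± 0.20), relatives of POU3F1, rose. Alongside them, 8 of 8 endoderm markers rose, 7 of 10 mesoderm and endothelial markers rose and 6 of 10 non-neural ectoderm and neural crest genes rose, whose part in the levels of the factors was not tested. The median log2 fold change was -0.56 over the 7 tested factors, 5.03 over the endoderm list and 0.29 over all genes.

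The genes most like each factor over the 19 samples were found by Pearson's r of log2(TPM + 1) among 15534 genes. The 19 samples share lines and a time course, so r describes the pattern only. SOX1 was most like LINC00403 (r = 0.98), a noncoding RNA whose gene covers SOX1 on the same strand and which was at 14.61 TPM at day 8, followed by OLIG3 (0.96) and LHX5-AS1 (0.92). SIX3 was most like LHX5-AS1 (0.94) and LHX5 (0.94). SOX1, SIX3 and these genes were all highest at day 8, and LHX5-AS1 was at 21.66 TPM there and at 1.02 or less elsewhere. The r values for SOX1 and SIX3 therefore lean on the single day 8 sample. SOX3 was most like FAM57B (0.97), ANKRD24 (0.97) and PHF21B (0.97), and POU3F1 like MMP17 (0.97), ANKRD24 (0.97) and RTN4RL2 (0.96). PAX6 was most like GAS6 (0.98), LHX2 like ZIC1 (0.91), a zinc finger factor of the dorsal neural tube, and HESX1 like KCNG3 (0.93). The gene most like OTX2 was IWS1 (0.80).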

How the data were processed

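RNA was extracted with Trizol and libraries were made with a TruSeq RNA kit. Reads were mapped by the authors to GRCh38 transcripts with Bowtie2 and summed per gene by RSEM, and TPM values were deposited for 33382 genes in each of 19 samples. Read counts were not used here, so the count test the study describes was replaced by limma 3.58.1 in R 4.3.3 on log2(TPM + 1). The fit had a mean for each of 6 lines, over the 19100 genes that reached 1 TPM in 2 or more of 12 samples, with Benjamini-Hochberg adjustment over all of them. Its error is the spread between the 2 samples of a line and not the spread between lines. By their titles the samples of a knockout were clones or passages, and for WT H1 the spread may be technical. Time course ratios used genes that reached 1 TPM in any of 7 samples. Ratios on this scale understate changes of low genes. Replicate numbers are in accession order and pair nothing. Gene positions and overlaps are from GENCODE release 44, and promoters from RefSeq on GRCh38.p14. Besides all 9 factors, up to 4 genes of each list with the largest change in the lines and up to 3 at day 8 could be named, and the 3 most similar genes per factor. The factors and lists were chosen with earlier results of these data known. Python 3.11.15 was used with pandas 2.3.3 and matplotlib 3.10.9.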

Additional observations from a re-analysis of the deposited data

Results flagged for a closer look

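PAX6 differed between knockout lines that share the loss of H3K27me3. Both lines were set against the same WT H1 samples, and the difference of their effects, SUZ12-/- H1 against EED-/- H1 cells, was a log2 fold change of -3.40 (limma, 2 samples against 2, adjusted p = 0.000197), with both SUZ12-/- H1 samples below both EED-/- H1 samples. The 4 samples fitted alone gave the same estimate with an adjusted p of 0.0101, just over the threshold of 1%.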

How the results depend on the processing

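The 20 called values of single factors in the lines kept direction and call under 233 of 235 alternatives, and 0 reversed. One setting among these, an FDR of 5% with no fold cutoff, used the reported fit with looser cutoffs. It could not change a call or direction of these values, so its share of the 235 carries no information. HESX1 in EZH2-/-/EZH1-/- H1 against WT H1 cells (limma adjusted p = 0.0156) and PAX6 in SUZ12-/- H1 against EED-/- H1 cells (0.0101) lost the call when only the 4 samples of the 2 lines were fitted, which left 0 factors called in the latter. With an FDR of 5% and no fold cutoff, 7 factors were called in SUZ12-/- H1 against WT H1, beside 46.9% of all genes. At that setting 2 were called in SUZ12-/- H1 against EED-/- H1 (19.6% of all genes) and 2 in SUZ12-/- H1 against EZH2-/-/EZH1-/- H1 cells (14.3%). A pseudocount of 0.1 gave 7, 2 and 1 factors, beside 23.6%, 4.86% and 2.99% of all genes. Leaving out 1 sample at a time gave 0 to 1 factors in EZH2-/-/EZH1-/- H1 against EED-/- H1 cells. A replicate block by accession order changed no call of a factor (5 in the PRC2-null lines), and deviations of same-numbered samples correlated by -0.003 on average. In the time course a pseudocount of 0.1 gave 4 factors past 3-fold at day 12 and 7 at day 24. Of 19011 genes, 1966 and 3984 were then above and 503 and 1850 below. The WT H1 mean as reference gave 4 factors at day 12 and 4 at day 16, beside 487 and 462 genes above and 134 and 235 below. A fold of 2 gave 4 factors at day 12 and 5 at day 16, beside 2148 and 2312 genes above and 337 and 774 below. Against the median of the other 6 samples, 6 factors were past 3-fold at day 8, beside 314 of 19011 genes, and PAX6 reversed to 1.10.

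Over all genes, scaling by median ratios moved the median log2 fold change of the PRC2-null lines from 0.29 to 0.07 and left the direction of every tested factor against WT H1 in the 3 PRC2-null lines as it was, although SIX3 then fell under the filter. It moved the share of calls that were higher from 72.7% to 58.0% in EED-/- H1 cells and from 76.2% to 58.7% at day 28. Depth is unknown, so levels under 1 TPM, where SOX1 and RAX lay in all 12 line samples and SIX3 in 10 of them, cannot be ranked, and each time point is 1 sample. Under all alternatives, genes called numbered 0 to 203 in EZH1-/- H1 (19 as reported), 0 to 12 in EZH2-/- H1 (0), 3476 to 9774 in EED-/- H1 (4263), 2937 to 8962 in SUZ12-/- H1 (3763) and 1908 to 8459 in EZH2-/-/EZH1-/- H1 cells (3301) against WT H1, and 3383 to 13098 in the PRC2-null lines together (3551). Between PRC2-null lines they numbered 384 to 3736 (1169), 0 to 737 (17) and 24 to 2728 (852), in the order of the report. At day 8, 1921 genes were above +DOX with a pseudocount of 0.1 and 2120 at a fold of 2 (528), and 106, 152 and, against the median, 314 were above the rest (32).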
